A study of Mus musculus with 2 samples.

Results

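Among the places bound by the histone demethylase LSD1 in differentiated primary brown adipocytes, 3316 lay away from gene starts and carried an AP-1 site at their centre. A peak was counted as distal when its midpoint was more than 2.5 kb from every protein-coding transcript start of GENCODE M21, and as an AP-1 distal peak when the 200 bp around the midpoint held TGACTCA or TGAGTCA. The middle base is C or G, and each word is the reverse complement of the other, so either word covers both strands. These 3316 peaks were 7.91% of the 41903 distal peaks (Wilson 95% interval 7.66 to 8.18%) and part of 59175 peaks in all. They were compared with the other 38587 distal peaks. The rule read the sequence and the position of a peak and not its height.

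The series held 2 samples, 1 library each: chromatin precipitated with an antibody to LSD1, and input DNA taken without antibody. Both came from C57BL/6 N mice of the genotype labelled Control, as primary cells of passage 2 to 3 kept in 20% fetal bovine serum. Differentiation ran for 10 days. The mixture held the hormones insulin (850 nM) and T3 (1 nM) and the drugs isobutylmethylxanthine (500 µM), indomethacin (125 nM), rosiglitazone (1 µM) and dexamethasone (1 µM). Fixation took 5 min. The synthetic glucocorticoid, the PPAR-gamma agonist and the phosphodiesterase inhibitor were therefore common to every cell measured. The data used here were 1 list of peaks with 1 score each. With 1 library there is no replicate, so every interval and p-value below describes the spread over peaks of this library, neighbouring peaks are not independent, and no statement is made about other cultures. Read depth is unknown, and a peak list cannot be checked against marker genes of brown fat.

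LSD1, encoded by Kdm1a, removes methyl groups from lysine 4 of histone H3 and works in complexes with CoREST proteins and histone deacetylases, reaching DNA through transcription factors. AP-1 is a family of dimers of Fos and Jun proteins, which answer to growth factors, stress and cyclic AMP and bind the 7-base element above, mostly at enhancers. LSD1 also takes part in brown fat formation, and members of the Snail and ZEB families of repressors are among the factors known to bring LSD1 to DNA.

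The sites of the highest-scoring members with midpoints outside exons are shown first, because they let a reader see the element in place. Each line gives mm10 plus-strand sequence from RefSeq, named by the nearest protein-coding start, with 20 bp on each side of the site nearest the midpoint and AP-1 sites in capitals.
Timp3, chr10:86339657-86339703: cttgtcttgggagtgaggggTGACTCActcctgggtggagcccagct
Snai1, chr2:167570449-167570495: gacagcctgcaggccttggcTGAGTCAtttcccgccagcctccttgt
Itgb5, chr16:33916762-33916808: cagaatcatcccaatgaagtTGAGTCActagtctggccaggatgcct
Serpinh1, chr7:99360444-99360490: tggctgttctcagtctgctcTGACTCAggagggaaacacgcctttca
Azin1, chr15:38470890-38470936: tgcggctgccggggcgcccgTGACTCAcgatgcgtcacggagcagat

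The highest score of any AP-1 distal peak, 1668, belonged to a peak of 1681 bp in an intron of Syn3, 36811 bp downstream of the nearest start, that of Timp3, an inhibitor of matrix metalloproteinases. The second, at 1478, lay 32303 bp downstream of the start of Snai1, which encodes the repressor Snail. Next came a peak at 1256 in an exon of Pnkd near the start of Tmbim1, and a peak at 1208 in an intron of Itgb5, an integrin subunit. The peak 7237 bp upstream of Serpinh1, the collagen chaperone HSP47, scored 1149. A peak of 2864 bp near Azin1, an antizyme inhibitor, scored 1062 and held 2 sites. The other four of the 10 highest lay near Cdk5rap1 (1036), Nanos3 (926), Dnajb6 (778) and Tbc1d4 (776), the last being the AS160 protein of insulin-stimulated glucose transport. Of these 10 peaks, 1 had its midpoint in an exon.

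AP-1 sites were gathered at the centres of distal LSD1 peaks. The central 200 bp held a site in 7.91% of distal peaks, against 3.84% in windows of 200 bp centred 1 kb to either side, a difference of 4.07 percentage points (95% interval 3.78 to 4.36) and a ratio of 2.06. For context, 548 of the 17272 peaks within 2.5 kb of a start held a site (3.17%), and so did 3.10% of the 13237130 complete 200 bp windows of the genome. The same comparison of centre and flanks was made for 24 other motifs. In percentage points AP-1 ranked 1 of the 25, ahead of the E-box CAGCTG (3.86), the NFI element TTGGCA (2.97) and the TEAD word CATTCC (2.51). The 95% interval of CAGCTG, 3.48 to 4.23, overlapped that of AP-1, so the order of AP-1 and CAGCTG is not settled. As a ratio AP-1 did not rank 1: the CTCF motif was 4.78 times as frequent at the centre as beside it, at a share of 0.702% of distal peaks. Of all 433145 exact AP-1 sites in the genome, 0.821% lay in these centres.

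The excess formed a plateau. In distal peaks at or above the median score there were 0.498 sites per kb in the central 40 bp and 0.522 from 20 to 100 bp out, then 0.370 from 100 to 300 bp and 0.206 from 800 to 1000 bp. In those below the median the same zones had 0.373, 0.354, 0.303 and 0.208 sites per kb. Both sets thus reached the same level far out and differed at the centre. Peaks within 2.5 kb of a start showed no such rise, with 0.169 sites per kb in the central 40 bp and 0.161 from 800 to 1000 bp away.

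**Figure D1:**
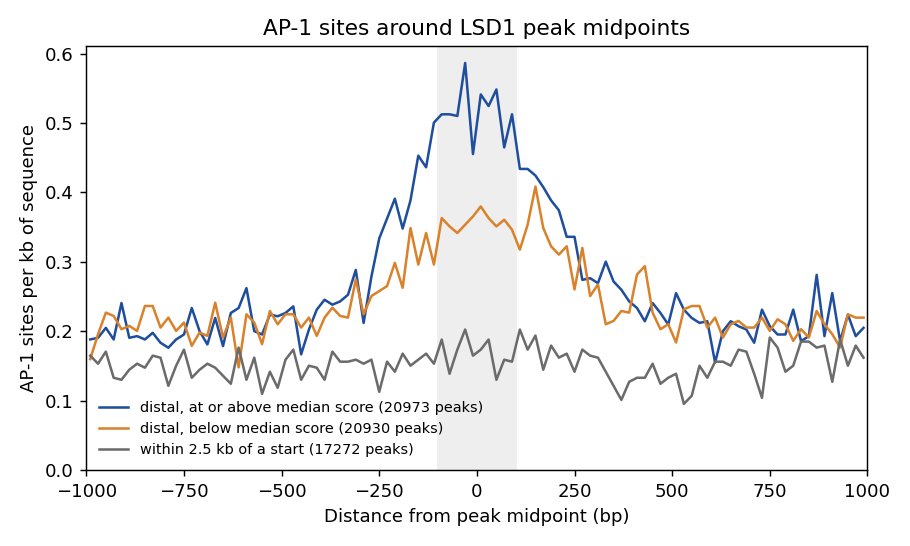
AP-1 sites per kb of sequence (y axis) by distance from the peak midpoint in bp (x axis, bins of 20 bp), for distal peaks above and below the median score and for peaks within 2.5 kb of a start; the grey band is the 200 bp of the rule. Both distal curves fall to about 0.206 to 0.208 sites per kb at 800 to 1000 bp, and the curve for peaks near starts is flat.

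Sites that differ from the element by 1 base were much less gathered. Of the 38587 distal peaks without an exact site, 46.9% held such a near-match in the central 200 bp, against 45.4% of their flanking windows without an exact site, a difference of 1.47 points (95% interval 0.858 to 2.08).

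Most AP-1 distal peaks held a single site. There were 3095 with 1 site (93.3%), 208 with 2 (6.27%) and 13 with 3 or more (0.392%), and the largest number was 6. The median score was 113.0 with 1 site, 124.5 with 2 and 145.3 with 3 or more, with quartiles that overlapped widely (87.6 to 174.4 with 1 site and 93.3 to 190.7 with 2). In the peaks with 2 sites the starts of the sites were 8 to 182 bp apart, with a median of 48.0 bp, and 33 pairs lay within 20 bp. The median distance of the nearest site from the midpoint was 47.0 bp, and the score hardly followed it: 107.6 at 0 to 10 bp, 114.8 at 26 to 50 bp and 116.3 at 76 to 97 bp.

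The members with most sites were not the highest ones, and several were tandem repeats. They are printed over the whole 200 bp because the repetition is visible only there; capitals mark AP-1 sites (mm10, plus strand, RefSeq).
Eif2ak4, chr2:118445180-118445379: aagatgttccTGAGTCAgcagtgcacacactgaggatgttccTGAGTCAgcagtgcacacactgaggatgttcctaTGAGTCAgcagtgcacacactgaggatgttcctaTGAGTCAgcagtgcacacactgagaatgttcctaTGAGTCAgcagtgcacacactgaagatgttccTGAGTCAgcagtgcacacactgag
Twsg1, chr17:65961609-65961808: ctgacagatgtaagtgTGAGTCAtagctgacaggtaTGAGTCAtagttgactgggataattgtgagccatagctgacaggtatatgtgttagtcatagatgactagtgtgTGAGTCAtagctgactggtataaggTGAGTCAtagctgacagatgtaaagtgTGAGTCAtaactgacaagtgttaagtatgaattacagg
Oxsr1, chr9:119265921-119266120: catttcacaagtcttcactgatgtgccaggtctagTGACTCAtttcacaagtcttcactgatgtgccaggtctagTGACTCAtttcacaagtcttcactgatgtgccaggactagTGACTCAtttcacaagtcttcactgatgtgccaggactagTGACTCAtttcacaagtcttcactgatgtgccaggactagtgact

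The peak in an intron of Eif2ak4, a kinase that senses amino acid shortage, had 6 sites, each starting 32 to 34 bp after the one before, and a score of 113.2. The peak near Oxsr1, a stress-responsive kinase, had 4 sites exactly 40 bp apart and scored 76.3. An exonic peak of Senp7, a SUMO protease, had 5 sites 42 bp apart and scored 85.8. In the peak near Twsg1, a BMP-binding protein, the 5 sites were unevenly spaced at 20 to 74 bp, and the score was 96.1. In 4 of the 13 members with 3 or more sites all spacings agreed to within 2 bp, and in none of the 13 was the midpoint in soft-masked sequence, the part of the genome marked as repeats. Of the rest, the highest scores were 334.4 for a peak near Slc4a1ap and 330.7 for a peak near Gal, the gene of the neuropeptide galanin.

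AP-1 distal peaks were higher and wider than other distal peaks. The score is the authors' own, on a scale that no label or header explains, and it serves only to rank peaks within this list. Scores of AP-1 distal peaks had a median of 113.7 (quartiles 87.9 and 175.7), against 101.0 (84.1 and 140.1) in other distal peaks. Of AP-1 distal peaks 58.9% were above the median of all distal peaks, against 49.2% of other distal peaks, a difference of 9.77 points (Newcombe 95% interval 8.01 to 11.5). The highest decile of distal scores took in 14.5% of AP-1 distal peaks and 9.62% of other distal peaks. The maximum was 1668 among the 3316 AP-1 distal peaks and 3100 among the 38587 other distal peaks, a larger group in which a larger maximum is likely. At percentile 99 the scores were 574.7 in AP-1 distal peaks and 615.9 in other distal peaks.

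**Figure D2:**
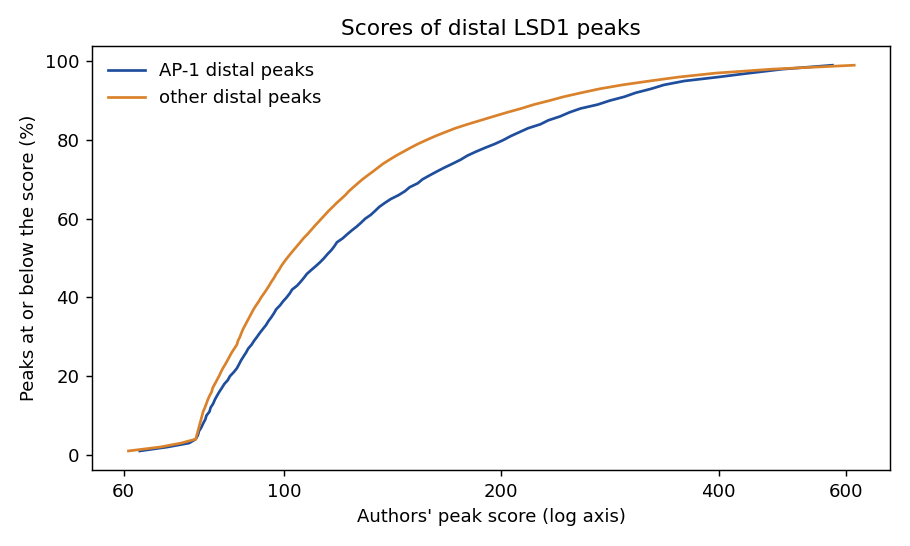
Share of peaks at or below each score (y axis, percentiles 1 to 99) against the authors' peak score (x axis, log scale), for AP-1 distal peaks and other distal peaks. The AP-1 curve lies to the right through the middle of the range, with medians of 113.7 and 101.0, and the curves meet near the top.

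Width went the same way. AP-1 distal peaks had a median width of 635 bp, against 600 bp in other distal peaks, and 59.8% against 49.0% were wider than the median of all distal peaks, a difference of 10.9 points (95% interval 9.12 to 12.6). Over all distal peaks the median score was lower in width decile 5 (76.8) than in decile 1 (103.6) and highest in decile 10 (302.3). Within deciles of width the score difference was 2.77 points (95% interval 1.44 to 4.11). Among peaks narrower than the median the score difference was 1.67 points with an interval from -1.12 to 4.46, so no difference could be told there. Within 20 strata of GC content it was 9.46 points.

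The share of distal peaks with an AP-1 site was 6.01% in the lowest decile of scores (236 of 3927) and between 6.24 and 7.22% in the next 5. It was 8.03% in decile 7, 8.97% in decile 8, 11.04% in decile 9 and 11.5% in the highest (480 of 4191). By width the share was 5.79% in the narrowest decile and 11.2% in the widest. The intervals of the lowest and highest deciles did not overlap for either measure.

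**Figure D3:**
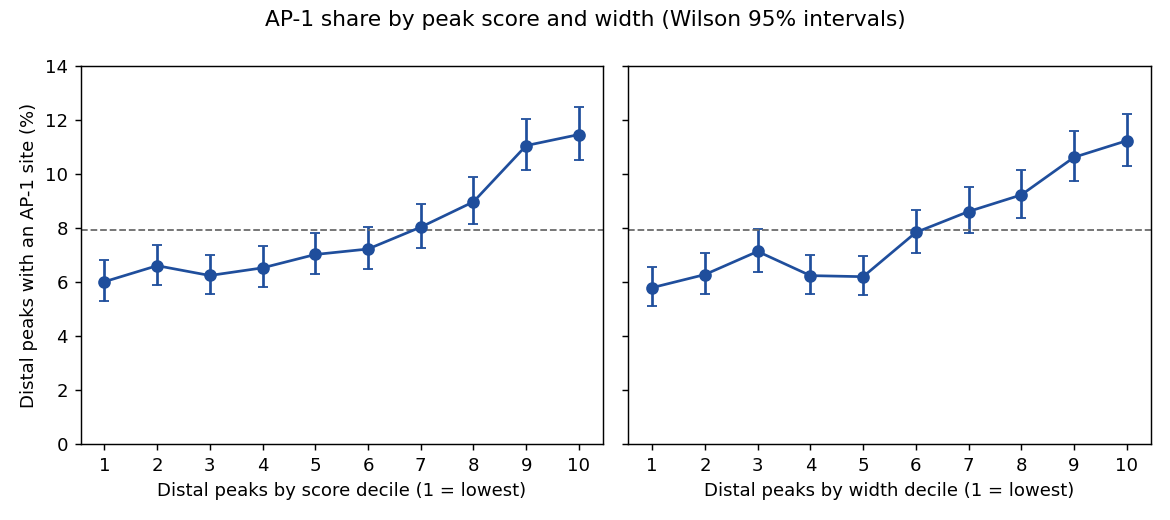
Share of distal peaks with an AP-1 site in percent (y axis) by decile of score (left) and of width (right), with Wilson 95% intervals; the dashed line is the share over all distal peaks, 7.91%. The share stays near 6 to 7% over deciles 1 to 5 and reaches 11.5% by score and 11.2% by width.

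In position, AP-1 distal peaks differed little from other distal peaks. Midpoints lay in introns in 50.9% of AP-1 distal peaks and 51.8% of other distal peaks, a difference of -0.89 points whose interval, -2.66 to 0.88, included 0. Exons held 4.61% of AP-1 distal peaks against 6.98% (a difference of -2.37 points, -3.08 to -1.56), and intergenic sequence 44.5% against 41.2% (3.25 points, 1.501 to 5.02). The median distance to the nearest start was 31510 bp in AP-1 distal peaks and 29063 bp in other distal peaks, and 37.2% against 36.1% were more than 50 kb away (1.07 points, -0.63 to 2.80). Across the autosomes the AP-1 share ran between 6.43% on chromosome 8 (146 of 2272) and 9.07% on chromosome 7 (225 of 2480). Chromosome X had only 130 distal peaks, 13 of them with AP-1.

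AP-1 distal peaks were somewhat more often neighbours of one another. Another peak lay within 10 kb of 61.4% of AP-1 distal peaks and of 59.1% of other distal peaks (2.38 points, 0.64 to 4.09), a difference that was 1.44 points (-0.25 to 3.14) within GC strata. Where the nearest distal neighbour was within 10 kb, it held an AP-1 site in 11.3% of cases for AP-1 distal peaks (208 of 1842) and in 8.09% for other distal peaks, a difference of 3.20 points (1.78 to 4.77). That difference was 0.58 points (-1.70 to 3.68) among peaks narrower than the median. Peaks nearest to each other entered from both sides, so these intervals treat linked cases as independent.

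Repeat sequence was rarer in AP-1 distal peaks: the midpoint was soft-masked in 11.1% of them and in 17.1% of other distal peaks (-6.01 points, -7.10 to -4.83). GC content outside the sites was close, with medians of 48.7% in AP-1 distal peaks and 47.5% in other distal peaks. The AP-1 share was highest at middle GC, at 8.91 and 9.01% in classes 3 and 4 of 5 equal classes, against 6.33% in the lowest and 7.66% in the highest. A CpG was present in 84.1% of AP-1 distal peaks and 83.2% of other distal peaks (0.91 points, -0.43 to 2.17). Peaks with 6 or more CpGs had an AP-1 site in 6.03% of cases.

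The letters around the site differed between central sites and AP-1 sites elsewhere. Central sites of members were compared with exact sites 500 to 1500 bp from the midpoints of distal peaks, each read so that the middle base was C. A T just before the site or an A just after it was found in 22.3% of central sites and 32.9% of sites away from the centre, a difference of -10.6 points (95% interval -12.1 to -9.03). A purine before together with a pyrimidine after was found in 29.7% of central sites against 23.0%. Of single bases, T before the site made up 9.98% against 16.3%, A after it 13.9% against 20.8%, G before it 32.2% against 27.9% and T after it 25.9% against 21.5%. Of the 40 combinations of base and position within 5 bp, 14 had an interval above 0 and 13 one below 0. The shifts were thus not confined to the adjoining letters. At position 3 after the site, C made up 28.5% against 22.8% and A 24.8% against 28.7%. At position 3 before it, G made up 23.4% against 19.6% and A 25.2% against 28.5%. Central and other sites were not matched for GC content. Of the sites of high-scoring members outside exons, printed first and read in this way, those near Timp3 and Azin1 have a purine before and a pyrimidine after. Among the same sites only that of Itgb5 has an A after it.

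Apart from AP-1, few sequence motifs told AP-1 distal peaks from other distal peaks. The 24 motifs were sought on both strands of the 200 bp with the AP-1 bases of members masked, and shares were compared by a Cochran-Mantel-Haenszel test over 20 strata of GC content with Benjamini-Hochberg adjustment. No motif was more frequent in AP-1 distal peaks (0 of 24, 0%, with 2 at an unadjusted p under 0.05) and 1 was less frequent (4.17%, with 5 at an unadjusted p under 0.05). That one was CAGGTG, the E-box bound by ZEB and Snail repressors, present in 11.01% of AP-1 distal peaks and 14.03% of other distal peaks, a stratified difference of -3.44 ± 0.57 points (SE, chi-square adjusted p = 1.07e-06). It was not gathered at distal centres in general, with 13.85% at the centre and 14.03% in the flanks. In whole peaks its difference was of the other sign, at 1.22 points. Whole peaks are wider where they hold a site, and 16 of the 24 motifs were called higher there.

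Masking the members alone takes sequence from AP-1 distal peaks only, 12 of the 195 places where a 6-base word can start for each site. A second version, added after the first had been seen, therefore hid the same positions in the other distal peaks too. There 2 motifs were higher in AP-1 distal peaks (8.33%) and 1 lower (4.17%). CAGGTG remained lower, at -2.62 ± 0.57 points (chi-square adjusted p = 0.000488). The E-box CAGCTG, the type bound by myogenic and related basic helix-loop-helix factors, was in 14.6% of AP-1 distal peaks against 12.2% of other distal peaks as masked, 2.01 ± 0.63 points (chi-square adjusted p = 0.0091). The joint C/EBP-ATF element TGATGNAA was in 4.13% against 3.30%, 0.89 ± 0.36 points (chi-square adjusted p = 0.049). Both missed the threshold in the 200 bp with masking of members alone, at 1.22 ± 0.63 points (chi-square adjusted p = 0.17) and 0.63 ± 0.36 points (chi-square adjusted p = 0.18). With that masking in 400 bp windows, CAGCTG passed at 1.58 points (chi-square adjusted p = 0.032). C/EBP-ATF did not, at 0.24 points (chi-square adjusted p = 0.68). In whole peaks both passed, at 3.57 and 1.09 points.

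**Figure D4:**
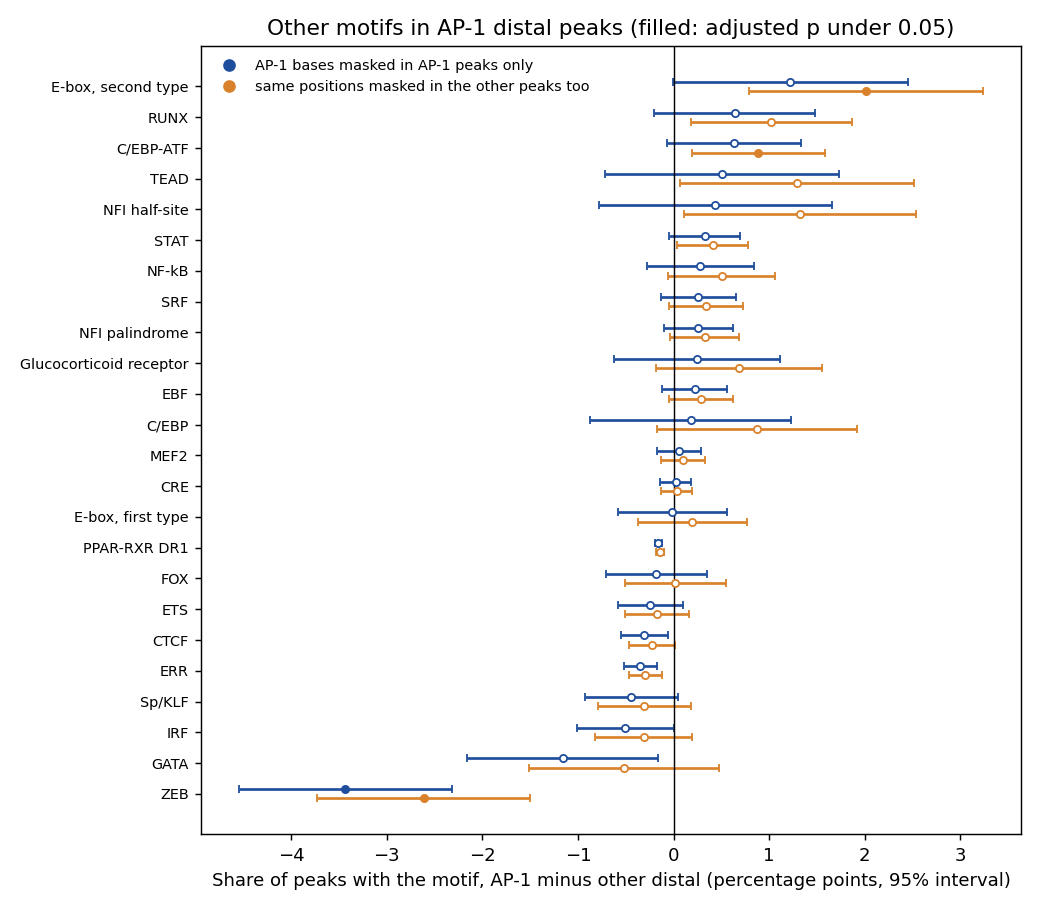
Difference in the share of peaks with each of 24 motifs, AP-1 distal minus other distal (x axis, percentage points, bars of 95% intervals), with AP-1 bases masked in AP-1 peaks only and with the same positions masked in the other peaks too; filled points have an adjusted p under 0.05. CAGGTG (ZEB) is lower in both versions, and CAGCTG (E-box, second type; the first type is CACGTG) and C/EBP-ATF pass only in the second.

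For elements of 4 factors active in fat cells the size of the difference changed with the masking, but neither mask gave a call in the 200 bp. With members masked, C/EBP (TTGCNNAA) was in 9.77% of AP-1 distal peaks and 9.73% of other distal peaks, the NFI TTGGCA element in 13.7% and 13.1%, TEAD in 13.9% and 13.2%, and the glucocorticoid receptor core ACANNNTGT in 6.48% and 6.25%. Their adjusted p-values lay between 0.59 and 0.81, which does not show that the shares are equal. With the same positions masked in the other distal peaks, the stratified differences were 0.87 ± 0.53 points for C/EBP, 1.32 ± 0.62 for NFI, 1.29 ± 0.62 for TEAD and 0.69 ± 0.44 for the glucocorticoid receptor (SE), against 0.18, 0.44, 0.50 and 0.25 points with members masked. Their adjusted p-values were then between 0.085 and 0.17, so none passed. In whole peaks, which are wider where they hold a site, all 4 were called higher in AP-1 distal peaks, by 2.92 to 3.98 points. The PPAR-RXR motif DR1 was in 0 of 3316 AP-1 distal peaks, which allows a share of up to 0.0905%, and in 0.153% of other distal peaks (chi-square adjusted p = 0.17). Where members held CAGCTG, its edge was a median of 45.0 bp from the nearest AP-1 site, and in 83 of 484 it was within 10 bp. For TEAD the median was 42.0 bp, with 85 of 461 within 10 bp. For the NFI TTGGCA element it was 48.0 bp, with 57 of 455. CAGCTG thus lay between these motifs in spacing, and no closeness particular to CAGCTG was shown or tested.

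A peak beyond the start of Snai1 and a peak near Socs1, an inhibitor of cytokine signalling, serve as examples of members with an E-box; capitals mark the AP-1 site and the E-box, CAGCTG in the first and CAGGTG, read on the other strand as CACCTG, in the second (mm10, plus strand, RefSeq).
Snai1, chr2:167570431-167570485: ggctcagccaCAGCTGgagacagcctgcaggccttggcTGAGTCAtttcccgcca
Socs1, chr16:10754256-10754315: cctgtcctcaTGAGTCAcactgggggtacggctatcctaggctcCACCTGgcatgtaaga

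All 2080 words of 6 bases, each joined with its reverse complement, were tested in the same way. With members masked, 2 were higher in AP-1 distal peaks (0.0962%) and 100 lower (4.81%), and the median difference over all words was -0.39 points. With the same positions hidden in the other peaks, 18 were higher (0.865%) and 25 lower (1.2%), with a median of -0.03 points. All 25 of the second version were among the 100 of the first. The word with the smallest p, CAGGTA, was in 3.95% of AP-1 distal peaks and 7.05% of other distal peaks (-3.14 ± 0.36 points, chi-square adjusted p = 1.28e-08), and in the second version its difference was -2.75 ± 0.36 points (chi-square adjusted p = 1.53e-06). CACCTA was in 4.04% against 6.39%. Of the 10 words of smallest p that do not resemble the AP-1 element, 9 hold AGGT or ACCT and the other is AAGAAG. The core AGGT occurs in 48 of the 2080 words, in 24 of the 100 lower words of the first version and in 17 of the 25 of the second.

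Each distal peak was assigned to the nearest protein-coding start, which need not be the gene it acts on. By this count 2499 of 21829 protein-coding genes (11.4%) had at least 1 AP-1 distal peak, among them 1917 with 1, 417 with 2, 111 with 3 and 54 with 4 or more. Any distal peak at all was found for 11114 of the 21829. Counts of genes with an AP-1 distal peak, below, were not adjusted for the number of distal peaks per gene. The AP-1 share of a gene's distal peaks was used to describe the lists, without a test. Of 20 lists, 11 had a share above that of all distal peaks and 9 a share below.

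Genes of the TGF-beta and BMP pathway had 28 AP-1 distal peaks of 232 (12.1%, 95% interval 8.48 to 16.9%). They were spread over 12 of 22 genes, 21 of which had a distal peak. Over all genes, 2499 of the 11114 with a distal peak had one with AP-1. The highest lay near Id1, a BMP-induced inhibitor of helix-loop-helix factors (score 726.3), and in an intron of Smad3, the TGF-beta signal transducer (646.5). Targets of TEAD and YAP had 15 of 117 (12.8%, 7.93 to 20.1%), among them a peak at 301.4 near Ccn2, the matricellular protein CTGF, and 1 at 259.2 in an intron of Wwtr1, the co-activator TAZ. Immediate-early genes other than AP-1 subunits had 20 of 190 (10.5%, 6.92 to 15.7%), with 646.9 for a peak 299738 bp beyond the start of Myc and 526.0 for 1 near Zfp36, an mRNA-destabilising protein. Known AP-1 targets of stress and matrix turnover had 9 of 92 (9.78%), led by Cxcl1, a chemokine (513.6), and Plaur, the urokinase receptor (452.8).

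Adipogenic transcription factors had 29 of 281 (10.3%, 7.28 to 14.4%), over 14 of 24 genes. All 24 had a distal peak, and over all genes 2499 of the 11114 with a distal peak had one with AP-1. Cebpb, an early driver of fat cell formation, had 5 of 22 distal peaks with AP-1, the most in the list. Of these, 4 lay within 9.88 kb at chr2:167761156-167771038, centred 72503 to 81638 bp downstream of the gene start, with scores of 97.04, 325.4, 155.8 and 223.9. The fifth, at 100916 bp, scored 531.0. Rxra, the partner of PPAR-gamma, had a peak at 505.4. Pparg itself had 1 of 6, at 78.5, and Ebf2, a brown fat determination factor, 1 of 18, at 121.9.

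Brown fat thermogenic genes had 11 of 132 (8.33%, 4.72 to 14.3%), close to the share of all distal peaks. The highest were a peak at 214.4 near Adrb1, a beta-adrenergic receptor, and 1 at 173.9 in an intron of Ppargc1b. The distal peaks of Ucp1 (2), Ppargc1a (12), Prdm16 (11) and Dio2 (4) held none with an AP-1 site. Of 23 genes chosen by name, 14 had none. Together the 23 had 13 of 185 distal peaks with AP-1, beside 3316 of all 41903 distal peaks (7.91%). With so few peaks per gene, an absence does not show a lower share than that of all distal peaks. White-fat-selective genes had 8 of 93 (8.60%), among them a peak at 356.7 upstream of Lep, the leptin gene, and 1 at 283.6 in an intron of Zfp423, a repressor of the brown programme. Lipid storage and lipolysis genes had 7 of 78 (8.97%), with 467.4 near Scd2, a fatty acid desaturase, and 430.8 in an intron of Mgll, monoglyceride lipase. Fatty acid oxidation genes had 3 of 49 (6.12%), led by a peak at 325.1 in an intron of Acadl.

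The genes of AP-1 subunits and close relatives had 7 of 94 (7.45%, 3.65 to 14.6%). Jun with 16 distal peaks, Fos with 8, and Junb and Jund with 1 each had none, numbers too small to show a lower share. Jdp2, a repressor of AP-1, had the highest, at 249.6, followed by Atf3 at 126.1, and Fosl2 had 1 of 18 with 2 sites, at 76.3. LSD1 and its partners had 9 of 131 (6.87%), of which the Snai1 peak was the highest. Kdm1a had 1 of 3, an intronic peak at 89.2. Glucocorticoid response genes had 9 of 154 (5.84%), among them a peak at 510.1 near Cdkn1a, a cell cycle inhibitor, and 161.1 in an intron of Fkbp5. Insulin signalling genes had 12 of 184 (6.52%), and circadian clock genes 9 of 98 (9.18%), of which 5 belonged to Arntl, the clock factor BMAL1, with scores of 132.7 to 553.9.

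Lists of other cell types and of structural genes were small. Macrophage and leukocyte markers had 4 of 28 (14.3%, 5.70 to 31.5%), endothelial markers 6 of 51 (11.8%), skeletal muscle genes 2 of 32 (6.25%), neuronal genes 2 of 62 (3.23%) and preadipocyte and fibroblast markers 12 of 162 (7.41%). Actin and focal adhesion genes had 4 of 91 (4.40%, 1.72 to 10.8%), with 344.1 for an exonic peak of Myh9. A peak near a gene does not show that the gene is expressed, and the part of other cell types in the culture was not tested.

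**Figure D5:**
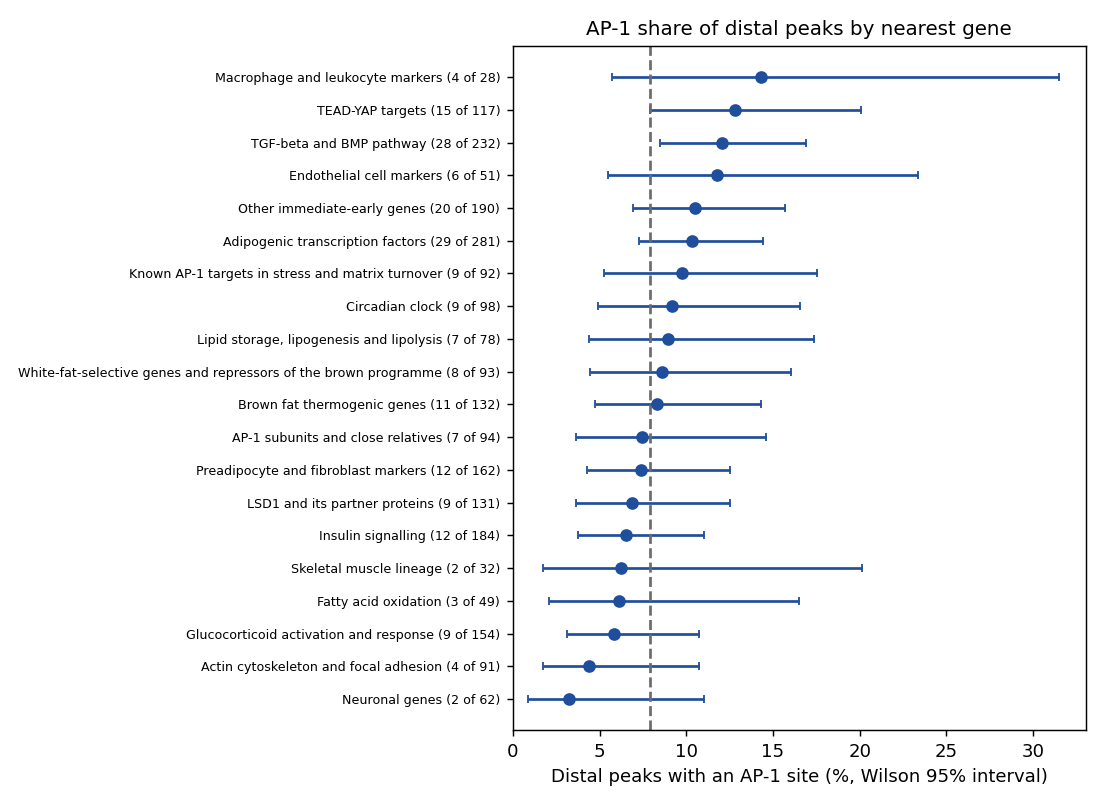
Share of distal peaks with an AP-1 site in percent (x axis, Wilson 95% interval) by list of nearest genes (y axis, with AP-1 peaks of distal peaks in each list); the dashed line is the share over all distal peaks, 7.91%. The intervals of TGF-beta and BMP pathway and TEAD-YAP targets lie above the line, the second only just, from 7.93%, and those of the other 18 lists include it. The 20 intervals are not adjusted for their number and treat peaks near the same gene as independent, so they describe the lists and test none.

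The genes with most AP-1 distal peaks had 6 each: Med13l, a Mediator subunit, of 43 distal peaks, Thbs2, the matrix protein thrombospondin-2, of 25, and 1810010D01Rik, of 17. With 5 each came Myc (of 45), Col4a1, a collagen of basement membranes (36), Runx1, a transcription factor (36), Magi1 (33), Klf6 (31), Cebpb (22) and Arntl (20). Their shares ran between 11.1% for Myc and 35.3% for 1810010D01Rik, above 7.91% in each, as follows in part from ranking by number.

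At the edges of the rule, the members nearest the 2.5 kb limit lay 2504 bp from the start of Inpp4a (score 178.8), 2511 bp from Sema6d (93.0) and 2518 bp from Retn (117.8). Just short of it were peaks with AP-1 at 2498 bp from Serpinh1 (306.3), 2488 bp from Kctd10 (132.2) and 2481 bp from Bcl9l (371.0). By the place of the site, members whose site was centred 81 to 97 bp from the midpoint (545 peaks) had a median score of 115.7, and peaks left out with a site up to 120 bp away (673) one of 112.5.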

How the data were processed

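Members and gene lists were chosen with earlier results of these data known. Per the labels' protocols, reads were aligned to mm10 with Bowtie2, and the submitters' processing notes name MACS 1.41. The authors deposited 1 peak list whose score has no stated scale; it was used to rank peaks only. The list was assigned to the LSD1 library because it names LSD1. Input was not analysed separately, and depth is unknown. Midpoints were set against GENCODE M21, and sequence was read from RefSeq GRCm38.p6, the mm10 build. Intervals are Wilson (shares) and Newcombe (differences), at 95%, and cover counting over peaks only. Motifs and words used the Cochran-Mantel-Haenszel test over 20 GC strata with AP-1 bases of members masked. On simulated data with 3 points of difference 99 of 100 words were recovered, with 10 false calls among 1880. There each word was drawn independently and no sequence was masked. Smaller differences, such as those of most motifs here, were not simulated. Of 397 list entries 396 matched. Peaks were named by score, number of sites, locus and limits, and words by p. Added after values had been seen were the equal masking, the centre comparison of other motifs, near-matches, paired bases beside sites, site and motif spacing, the highest decile of scores, and the 10 motifs followed across alternatives. Python 3.11.15, NumPy 2.4.6 and SciPy 1.17.1 were used.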

Additional observations from a re-analysis of the deposited data

How the results depend on the processing

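With 18 alternatives, 274 of 370 recomputed values kept their direction and their side of the threshold (or, for shares and counts, their size), 28 turned sign, 12 lost and 17 gained a call, and 39 moved. No paired analysis was possible because each group has 1 library. The excess over the flanks, the soft-masked share, the exonic and intergenic shares and the bases beside the site kept their calls under every alternative that gave them a value. The AP-1 share was 3.96% with 100 bp windows, 14.4% with 400 bp, 20.97% in whole peaks, 51.1% with 1 base different allowed, 2.45% with a purine before and a pyrimidine after, 9.34% in peaks above the median score, 8.44% without soft-masked midpoints and 6.32% in narrow peaks (below the median width). In narrow peaks the differences were 1.67 points for score, 0.79 for width, 0.95 for neighbours and 0.58 for a neighbour with AP-1, with intervals that included 0. The neighbour difference was 1.44 points with 100 bp, 1.25 with 400 bp, 2.08 in peaks above the median score, 1.44 within GC strata and -0.98 with the flanked element, none past 0, and a neighbour with AP-1 was 1.13 points with 400 bp and 0.50 with the flanked element. The share beyond 50 kb was 1.85 points with a 1 kb limit, 1.72 within GC strata and 5.36 with the flanked element, all past 0, but -0.17 with a 10 kb limit and -0.60 with all starts. The intron difference was 0.12 points with 100 bp and 0.71 with 1 base different allowed. The CpG difference was -1.10 points with 100 bp, -0.61 with 1 base different allowed, and 0.55 (past 0) in whole peaks.

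Motif and word counts depended most on the setting. Motifs higher were 3 with 400 bp, 16 in whole peaks, 2 unmasked (CAGCTG and TEAD) and 2 with equal masking. Unmasked, CAGCTG and the TEAD word CATTCC can begin on the closing CA of the AP-1 site. Those 2 calls therefore draw in part on the letters that chose the members. Motifs lower were 3 with 400 bp, 3 with 1 base different allowed, 0 with the flanked element and 0 in narrow peaks. Words higher and lower were 0 and 39 with 100 bp, 12 and 215 with 400 bp, 1487 and 33 in whole peaks, 0 and 1076 with 1 base different allowed, 1 and 2 with the flanked element, 1 and 29 in peaks above the median score, 0 and 0 in narrow peaks, 9 and 228 without strata, and 18 and 25 with equal masking. Words higher were 4 with a 1 kb limit, 1 with all starts and 1 without soft-masked midpoints, and words lower 56 with a 10 kb limit. CAGGTG turned to 1.22 points in whole peaks (chi-square adjusted p = 0.048), and stayed lower at -3.09 points with the flanked element (chi-square adjusted p = 0.068) and -2.63 points in narrow peaks (chi-square adjusted p = 0.17), without passing the threshold, with fewer members in both. Motifs that were not called turned sign as follows. With 100 bp C/EBP was at -0.41 points, RUNX at -0.37 and the glucocorticoid receptor at -0.40. With 1 base different allowed TEAD was at -0.76, C/EBP at -0.66, the NFI element at -0.77, the glucocorticoid receptor at -0.37, DR1 at 0.038, STAT at -0.0081 and C/EBP-ATF at -0.18. With all starts TEAD was at -0.042 and C/EBP at -0.32, and in narrow peaks TEAD was at -0.18, C/EBP at -0.23 and STAT at -0.43. The glucocorticoid receptor was at -0.24 with a 10 kb limit, -0.89 with the flanked element and -0.30 in peaks above the median score, DR1 at 0.072 in whole peaks, and C/EBP at -0.056 without soft-masked midpoints. Lists above the overall share were 7 with 400 bp. The cause of these changes was not tested.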
